A study of Mus musculus with 4 samples.

Results

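Of the Bio-Myc peaks at promoters of protein-coding genes in mouse ESCs, 490 of 2900 overlapped no Max peak. These regions are called Bio-Myc-only promoter peaks here, and the other 2410 are called shared. They were chosen by the measured peaks themselves: a Bio-Myc peak on an autosome or chromosome X had to reach within 1 kb of an annotated TSS of some protein-coding gene and to share no base with a peak of the Max list. The share without Max, 16.9% (95% Wilson interval 15.6 to 18.3%), is therefore a description of the rule and carries no test. The whole Bio-Myc list holds 3962 peaks and the Max list 11544 on these chromosomes.

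The series has 4 samples of E14 mouse ESCs, each 1 library, and the 2 peak lists come from the Bio-Myc ChIP-Seq and the Max ChIP-Seq. In the Bio-Myc ChIP-Seq, a single stable clone carried Myc with an N-terminal Biotag, a short tag that the BirA ligase biotinylates. By the methods, the tagged Myc constructs were put into BirA-ES cells. The paper reports tagged Myc in its clones at about the level of endogenous Myc. The tagged Myc was driven by an EF1α promoter, and chromatin was bound to streptavidin T1 beads. In the Max ChIP-Seq, chromatin of parental wild-type E14 cells was bound with the anti-Max antibody sc197. A streptavidin mock ChIP (BirA-ES cells in the methods, parental wild type in the sample labels) was the control for Bio-Myc, and an anti-IgG ChIP in parental wild-type cells was the control for Max. No treatment or time point is given for any of them. There are no replicates, and the lists hold no read counts, so the depth behind each list is unknown. The cells and the kind of pulldown differ between the lists and cannot be told apart from the protein. Wilson intervals here cover counting error over peaks or genes only, and peaks of 1 library are not replicates of a culture. A region without a Max peak is one where Max did not pass the p-value limit of 1e-08, which does not show that Max was absent.

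Myc is a transcription factor of the basic helix-loop-helix leucine zipper family. It binds DNA as a heterodimer with Max, and the preferred site of the dimer is the E-Box CACGTG, with related non-canonical sites bound more weakly. Max also dimerizes with itself and with the Mxd and Mga proteins, so Max is commonly found at sites without Myc, while the reverse is not part of the textbook model. Myc is known for its binding at active CpG-rich promoters, many of them of genes for ribosomes, mitochondria, RNA processing and the cell cycle.

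To show what these regions look like, the sequences around the E-Boxes of some of them are given first, read 5′ to 3′ on the strand of the gene from mm9. Each is 40 bases long, holds no annotated exon, and has the canonical E-Box in capitals. They come from the peaks of Pla2g1b, a secreted phospholipase A2; Setd4, a SET-domain methyltransferase; Sgol1, a protector of centromeric cohesion; Ubap2l, an RNA-binding protein of stress granules; and 3 promoters of chromosome X, namely Gnl3l, a nucleolar GTPase, the ribosomal protein gene Rps4x, and the pair Idh3g and Ssr4.
Pla2g1b, chr5:115915165-115915204, plus strand: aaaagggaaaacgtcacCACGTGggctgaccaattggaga
Setd4, chr16:93604963-93605002, minus strand: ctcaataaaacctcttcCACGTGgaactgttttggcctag
Sgol1, chr17:53828698-53828737, minus strand: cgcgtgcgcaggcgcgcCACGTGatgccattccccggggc
Ubap2l, chr3:89856404-89856443, minus strand: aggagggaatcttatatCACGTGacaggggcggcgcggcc
Gnl3l, chrX:147452243-147452282, minus strand: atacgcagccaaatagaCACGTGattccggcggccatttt
Rps4x, chrX:99384137-99384176, minus strand: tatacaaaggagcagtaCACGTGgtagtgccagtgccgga
Rps4x, chrX:99382504-99382543, minus strand: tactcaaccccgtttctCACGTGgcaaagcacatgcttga
Idh3g and Ssr4, chrX:71031782-71031821, minus strand: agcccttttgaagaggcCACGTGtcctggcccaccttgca
The E-Box lay 7 bp from the centre of the Setd4 peak, 16 bp from that of Idh3g and Ssr4, and 33 and 143 bp from those of the 2 Rps4x peaks. The peak of Sgol1 held 2 E-Boxes, and the Ubap2l peak held 4.

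Most Bio-Myc-only peaks held no such site. For comparison, 120 bases upstream of the annotated TSS are shown for 4 of the 10 strongest Bio-Myc-only peaks, none with a CACGTG and all with no annotated exon in the window. Capitals mark other promoter motifs that a search found, which are the ZNF143 core ACTACAA, the CCAAT box GCCAAT and the GC box GGGCGG on either strand.
Rab30, chr7:99889993-99890112, plus strand: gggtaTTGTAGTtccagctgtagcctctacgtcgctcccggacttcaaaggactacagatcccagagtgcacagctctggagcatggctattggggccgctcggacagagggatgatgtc
Slc25a12, chr2:71185886-71186005, minus strand: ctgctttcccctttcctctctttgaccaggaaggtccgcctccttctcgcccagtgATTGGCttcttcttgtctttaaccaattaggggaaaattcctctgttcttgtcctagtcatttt
Hnrnpc, chr14:52723704-52723823, minus strand: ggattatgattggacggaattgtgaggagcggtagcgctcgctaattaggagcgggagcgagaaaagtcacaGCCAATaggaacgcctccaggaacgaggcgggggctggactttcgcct
Mms22l, chr4:24423478-24423597, plus strand: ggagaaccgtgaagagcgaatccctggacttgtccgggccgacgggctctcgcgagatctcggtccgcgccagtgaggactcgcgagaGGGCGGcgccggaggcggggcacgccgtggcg
A match is only a match of letters. Over all 22350 protein-coding promoters, 500 bp around the outermost TSS held ACTACAA in 4.89%, GCCAAT in 20.7% and GGGCGG in 52.6%.

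The strongest Bio-Myc-only peak covered the TSS of Snrpd1, a core Sm protein of spliceosomal snRNPs, on chromosome 18 from 10617599 to 10618412. Its score, 10 times the negative log10 of the p-value from MACS, was 420, and the closest Max peak was 6.84 kb away. Next came Rab30, a small GTPase of the Golgi, scoring 334 at chr7:99889557-99890428, 132 kb from Max. A peak shared by the promoters of Znfx1, a zinc finger helicase, and 1500012F01Rik had a score of 332. The peak of Tex22 had a score of 310, and the peak of Slc25a12, the mitochondrial carrier of aspartate and glutamate, a score of 291 with the largest width of all Bio-Myc-only promoter peaks, 2787 bp. These peaks all lay more than 6 kb from any Max peak.

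Mettl3, the catalytic subunit of the enzyme that methylates adenosine in mRNA, followed with a score of 289 at chr14:52924011-52925101. Hnrnpc, which binds nascent pre-mRNA, scored 285 on the same chromosome, 14.1 kb from Max. Pla2g1b had a score of 279, with its peak ending 670 bp upstream of the TSS. Rcc2, a regulator of chromosome condensation, had a score of 269, and it alone among these 10 had a Max peak close by, at a gap of 137 bp. Mms22l, which acts in the repair of stalled replication forks, scored 266, with Max 401 kb away. Of the 10 peaks, 9 covered a TSS, and 4 held a CACGTG anywhere in the peak (those of Znfx1, Mettl3, Pla2g1b and Rcc2).

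Scores of the Bio-Myc-only peaks were low within the Bio-Myc list. They ran from 80.1 to 420 with a median of 109 (quartiles 90.2 and 135), while shared peaks ran from 80 to 1621 with a median of 151 (quartiles 105 and 235). Under a score of 100 were 196 Bio-Myc-only peaks (40%) and 463 shared peaks (19.2%). At or over 200 were 29 (5.92%) and 798 (33.1%). With the 2900 peaks in quintiles by score, the share without Max fell from 30.9% (27.2 to 34.7%) in the lowest quintile to 23.4%, 18.6%, 9.14% and 2.41% (1.44 to 4.01%) in the highest. The Bio-Myc-only peaks were also narrower, with a median width of 873 bp against 1096 bp. Whether a deeper Max library would place Max peaks at the weak Bio-Myc peaks was not tested. Scores and widths come from the list that chose the peaks and are given without a test.

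**Figure D1:**
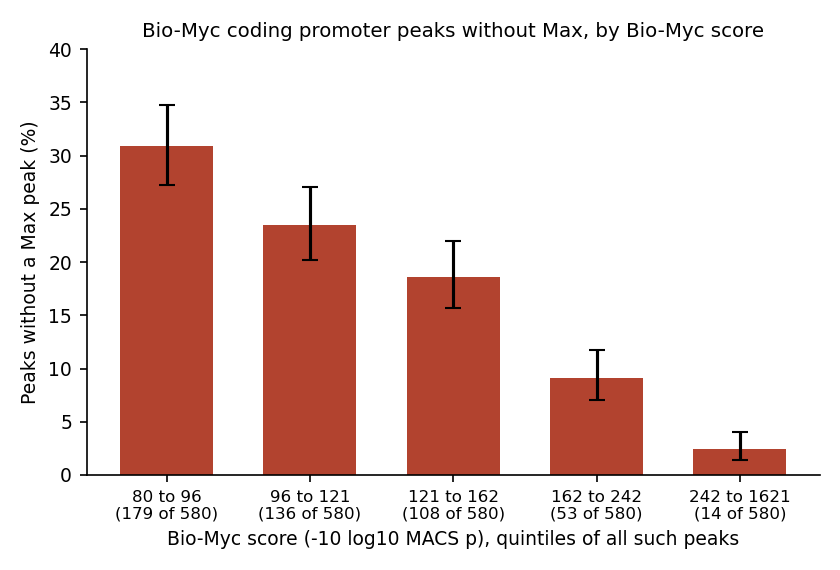
Share of Bio-Myc coding promoter peaks that overlapped no Max peak (%, vertical axis) in quintiles by Bio-Myc score (horizontal axis, with the score range and the numbers of peaks). Bars are shares and error bars 95% Wilson intervals; the share falls at each step, from 30.9% to 2.41%.

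The peaks closest to the limits of the rule were as follows. The lowest scores were those of 8430427H17Rik (80.1), the phosphatase gene Ptp4a3 (80.4), Lace1 (80.5) and Lpcat3, a lysophospholipid acyltransferase (80.6). The peak of Tmpo, which encodes the lamina-associated polypeptide 2, abutted a Max peak without sharing a base. Other close pairs were Lhx3, a LIM homeobox factor, at 13 bp, Sltm at 17 bp, Iqgap2 at 37 bp and Myef2 at 54 bp. Just outside the rule, the peaks of Bbc3, the BH3-only protein Puma, and of Ywhah, Atf2, Pafah1b1 and Ppa1 shared 29, 31, 31, 70 and 72 bp with a Max peak. At the edge of the promoter window, peaks of Mbd3 and Elf2 lay 982 and 965 bp from a TSS, and those of Suclg2, S1pr2 and 2010107H07Rik at 1023, 1041 and 1052 bp were left out.

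Few Bio-Myc-only peaks were near misses of this kind. A Max peak lay within 500 bp of 39 of them, within 1 kb of 49 (10%), within 10 kb of 136 (27.8%) and within 100 kb of 369 (75.3%). The median gap was 30 kb, with quartiles of 9.09 and 96.2 kb. The remaining 121 (24.7%, 21.1 to 28.7%) had no Max peak within 100 kb. The largest gap, 3819 kb, was that of Zrsr2, a splicing factor of minor introns, and the next was that of Gbe1, the glycogen branching enzyme, at 2348 kb. Trappc2 and Ofd1, which share a peak, and Tceanc and Mbtps2 followed at 2232, 2162 and 2028 kb. Of these 5 peaks, 4 were on chromosome X.

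**Figure D2:**
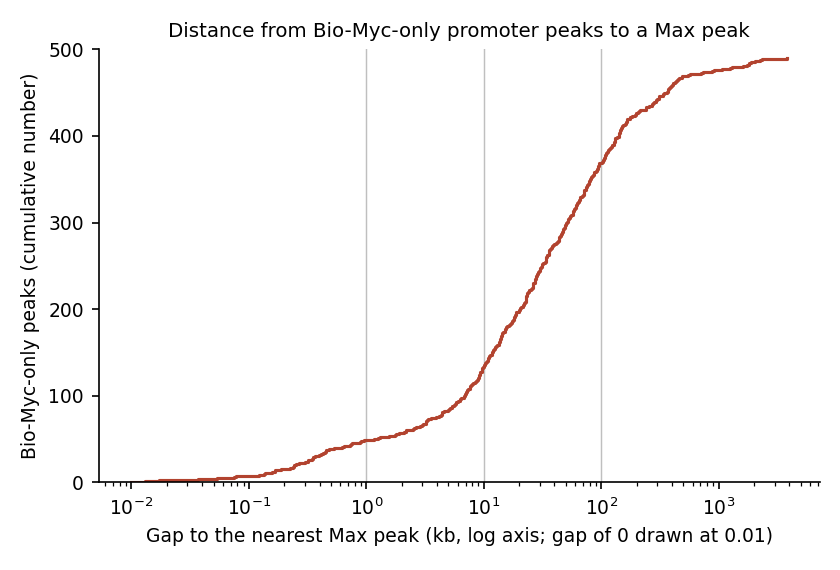
Cumulative number of the 490 Bio-Myc-only promoter peaks (vertical axis) by the gap to the nearest Max peak (horizontal axis, kb, log scale), with vertical lines at 1, 10 and 100 kb. The line stands at 49 peaks at 1 kb, 136 at 10 kb and 369 at 100 kb.

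By gene, 527 of the 22350 protein-coding genes (2.36%) had a Bio-Myc-only peak in a promoter window, and 3275 (14.7%) had any Bio-Myc peak. Max was not missing from all of these promoters: 91 of the 527 genes (17.3%) had a Max peak elsewhere within 1 kb of a TSS, 40 of them with a shared peak and 55 with a Max peak without Bio-Myc. The other 436 had Bio-Myc and no Max in any promoter window. Over all protein-coding genes, 7780 of 22350 (34.8%) had a Max peak in a promoter window. The rule, which leaves out Bio-Myc peaks that overlap Max, bears on the share of the 527 genes. Atp2a2, Mbd3, Pan3, Rps4x and Skap2 had 2 Bio-Myc-only peaks each. At Mbd3, a subunit of the NuRD complex, they had scores of 240 and 185, at gaps of 2379 and 446 bp from the nearest Max peak. At Rps4x they had scores of 160 and 146, and the nearest Max peak was 490 and 488 kb away.

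The position at the promoter differed from that of shared peaks in description. The TSS was covered by 371 of the 490 Bio-Myc-only peaks (75.7%, 71.7 to 79.3%) and by 2184 of the 2410 shared ones (90.6%, 89.4 to 91.7%). The peak centre was within 200 bp of a TSS in 55.3% and 65.5%. Bidirectional promoters were less frequent, since coding genes on both strands were reached by 40 Bio-Myc-only peaks (8.16%) and 418 shared ones (17.3%). The centres of the Bio-Myc-only peaks lay in introns in 188 cases, between genes in 125, in UTRs in 107 and in other exons in 70. The Bio-Myc-only peaks were also the narrower set, and the part of width in the coverage of TSSs and of gene pairs was not tested.

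The canonical E-Box was counted in the central 500 bp of each peak, so that the length searched was the same for all. For peaks narrower than 500 bp, this window reached beyond the peak. The E-Box was present in 109 of 490 Bio-Myc-only peaks, 22.2% (18.8 to 26.1%), and in 915 of 2410 shared peaks, 38.0% (36.1 to 39.9%). The odds ratio was 0.467 (Fisher's exact test, two-sided, adjusted p = 1.6e-10 over 27 motifs). The same length of sequence around the outermost TSS held it in 10.4% of all protein-coding promoters and in 6.10% of those with neither protein. Among unbound promoters of high CpG content the share was 6.98%, and among Max peaks at coding promoters without Bio-Myc it was 23.3%. Bio-Myc-only peaks thus held the E-Box less often than shared peaks, and at a share whose interval includes that of Max-only promoter peaks. That test compares 2 sets of regions and says nothing of the spread between cultures.

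The difference was also found among peaks of like score. Stratified by quintiles of the Bio-Myc score, the Mantel-Haenszel odds ratio was 0.517 (0.408 to 0.654). Within the Bio-Myc-only peaks the E-Box share was 22.3% in the lowest quintile and then 20.6%, 24.1%, 22.6% and 21.4%, the last from 14 peaks. In shared peaks it was 33.7% in the lowest quintile and 43.5% in the highest. The median score of Bio-Myc-only peaks with a CACGTG anywhere in the peak was 110 (109.6) and that of those without 107. Stratified by CpG class of the promoter, the odds ratio was 0.447 (0.354 to 0.563), but the classes did not all run the same way. The E-Box share was 19.5% of 430 Bio-Myc-only and 37.5% of 2271 shared peaks at high-CpG promoters, and 34.1% of 44 and 48.4% of 95 at intermediate ones. At low-CpG promoters it was 10 of 16 (62.5%, 38.6 to 81.5%) and 18 of 44 (40.9%, 27.7 to 55.6%), with overlapping intervals.

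Along the peak, E-Boxes concentrated at the centre in both sets. In the 100-bp bins on either side of the centre, 5.71% of Bio-Myc-only peaks and 10.7% and 10.2% of shared peaks held one. At 950 bp from the centre the shares were 1.02% and 0.816% of Bio-Myc-only peaks and 1.91% and 1.62% of shared peaks. Over whole peaks, 141 Bio-Myc-only peaks (28.8%) and 1298 shared peaks (53.9%) held a CACGTG, at 0.347 and 0.649 per kb. There were 2 in 2.24% and 12.4% of the peaks, and 3 or more in 0.408% and 4.40%. The peak of Ubap2l and 4933434E20Rik had the most, with 4, and that of Lmnb1, the gene for lamin B1, had 3. The peaks of the chaperone gene Hsp90b1, of the scavenger decapping enzyme gene Dcps and of Sgol1 had 2 each.

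**Figure D3:**
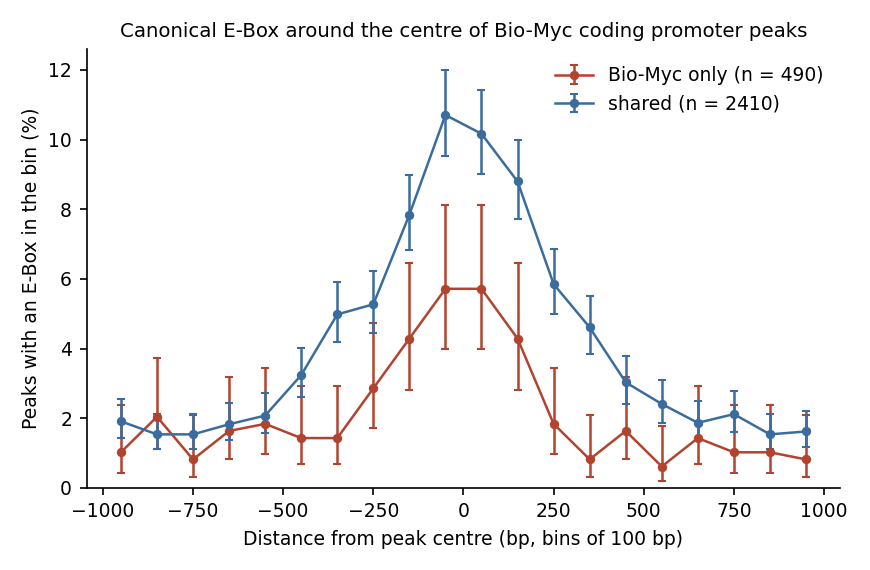
Share of peaks with a CACGTG (%, vertical axis) in bins of 100 bp by distance from the peak centre (horizontal axis, bp) for 490 Bio-Myc-only peaks (red) and 2410 shared peaks (blue). Points are shares and error bars 95% Wilson intervals; both curves peak at the centre, at 5.71% and 10.7%.

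Peaks beside the TSS were richer in E-Boxes than peaks over it, in both sets. Among the Bio-Myc-only peaks, 43 of 119 beside a TSS (36.1%) and 66 of 371 covering a TSS (17.8%) had one in the central 500 bp, against 51.8% and 36.5% of shared peaks. The distance to Max went with no steady change: the share was 24.5% of the 49 peaks with Max within 1 kb, 19.4% of the 320 with Max at 1 to 100 kb, and 28.9% of the 121 farther away, with overlapping intervals. The base before CACGTG, read on both strands in the central 500 bp, was C in 38.4%, G in 21.1%, T in 21.1% and A in 19.4% of cases, beside 37.6%, 26.8%, 20.995% and 14.6% in shared peaks.

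Of the 27 motifs searched in the central 500 bp on both strands, 8 differed between Bio-Myc-only and shared peaks at an adjusted p under 0.05 (Fisher's exact test, two-sided, Benjamini-Hochberg). Fewer Bio-Myc-only peaks held 6 of them. Besides CACGTG, these were the non-canonical E-Box CACGCG (26.3% against 45.1%, Fisher's exact test, adjusted p = 1.28e-13) and the palindrome TGCGCA (14.1% against 22.9%, adjusted p = 8.53e-05). The GC box GGGCGG, bound by Sp1 and related factors, was in 69.2% and 77.1%, with an adjusted p of 0.00143. CTCGAG (6.73% against 11.6%, adjusted p = 0.00593) and GACGTC (7.76% against 11.9%, adjusted p = 0.0279) were the others by the same exact test. Each of the 6 holds a CG. All coding promoters held CACGCG in 18.3%, TGCGCA in 12.6%, GGGCGG in 52.6%, CTCGAG in 7.86% and GACGTC in 7.35%. Unbound promoters of high CpG content held them in 23.6%, 15.9%, 78.4%, 9.85% and 9.61%, in the same order. The palindrome and the motifs named after the GC box had been searched as control palindromes. Their odds ratios were 0.553, 0.552 and 0.624 in the order named, beside 0.467 for the E-Box. The remaining control palindromes did not pass the threshold, with odds ratios from 0.655 to 1.06 (Fisher's exact test, lowest adjusted p = 0.375). Whether the lower share is specific to the E-Box was not tested.

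More Bio-Myc-only peaks held the remaining 2, which have no CG. The non-canonical E-Box CATGTG was in 25.7% and 17.5% (exact test, adjusted p = 0.000247), beside 17.2% of all coding promoters and 54.7% of the 505 Bio-Myc peaks without Max outside coding promoters. The TATA box TATAAA was in 9.80% and 6.35% (exact test, adjusted p = 0.0279), beside 16.6% of all coding promoters. Counting CACGTG and the non-canonical forms together, 260 Bio-Myc-only peaks (53.1%) had a non-canonical form alone and 121 (24.7%, 21.1 to 28.7%) had neither, against 47.1% and 14.9% (13.6 to 16.4%) of shared peaks. With stratification by score, 7 of the 8 differences stayed under 0.05, and that of GACGTC was then at an adjusted p of 0.0889.

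The other motifs showed no difference past the threshold. The ETS core CCGGAAG was in 23.5% of Bio-Myc-only and 24.98% of shared peaks, the CCAAT box in 20.4% and 19.5%, and the YY1 core AAGATGGC in 8.98% and 8.71%. The ZFX core AGGCCT was in 18.6% and 19.6%, the NRF1 core CGCATGCG in 3.88% and 5.27%, and the octamer ATGCAAAT, bound by Oct4, in 1.22% and 1.08%. Some of these motifs overlap, since TGACGTCA holds GACGTC, so the counts are not independent of each other.

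**Figure D4:**
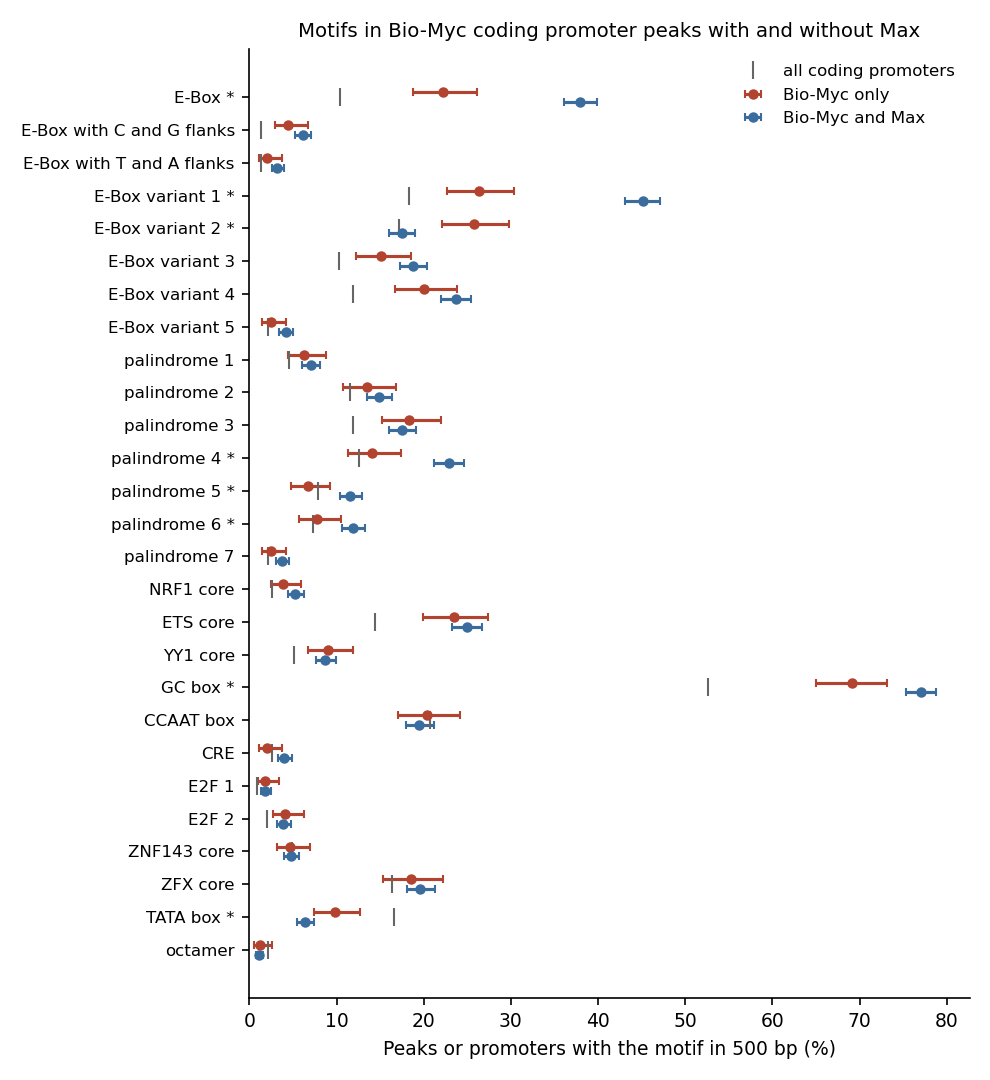
Share of regions with each of 27 motifs in 500 bp (%, horizontal axis) for 490 Bio-Myc-only peaks (red), 2410 shared peaks (blue) and all 22350 protein-coding promoters (grey ticks); error bars are 95% Wilson intervals and an asterisk marks an adjusted p under 0.05. The E-Box (22.2% and 38.0%) and variant 1, CACGCG (26.3% and 45.1%), are farthest apart, and variant 2, CATGTG, lies the other way.

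The promoters were CpG-rich, as those of shared peaks were, but less uniformly so. Of 487 genes with a Bio-Myc-only peak and no shared peak, 425 (87.3%, 84.0 to 89.9%) had a high-CpG promoter, meaning a stretch of 500 bp with a GC content of at least 55% and CpG at 0.6 or more of the expected frequency. The share was 93.9% of the 2748 genes with shared peaks only (odds ratio 0.444, Fisher's exact test, two-sided, p = 1.13e-06), 56.3% of all protein-coding genes and 36.3% of those with neither protein. Among genes with Max and no Bio-Myc it was 89.1%, within the interval of the Bio-Myc-only genes. In the central 500 bp of the peaks, the median GC content was 60.6% in Bio-Myc-only and 64.6% in shared peaks, and the median ratio of observed to expected CpG 0.744 and 0.841. The 505 Bio-Myc peaks without Max outside coding promoters had 49.8% and 0.271.

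Chromosome X stood apart. Of its 48 Bio-Myc coding promoter peaks, 32 had no Max peak (66.7%, 52.5 to 78.3%), against 458 of 2852 on autosomes (16.1%, 14.8 to 17.5%). The other chromosomes ran from 9.68% (chromosome 19) to 25% (chromosome 13), apart from chromosome 8, where 4 of 158 peaks (2.53%, 0.989 to 6.33%) had none. Those 4 were at Wdr59, Esrp2, Brf2, and Ash2l with Kcnu1. Max peaks themselves were unevenly placed: they were in promoter windows of 4.40% of the coding genes of chromosome X, 60.6% of those of chromosome 8 and 36.1% of all autosomal ones. Bio-Myc peaks were in those of 5.58% on chromosome X, 16.7% on chromosome 8 and 15.05% on autosomes. No cause was tested for either chromosome.

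**Figure D5:**
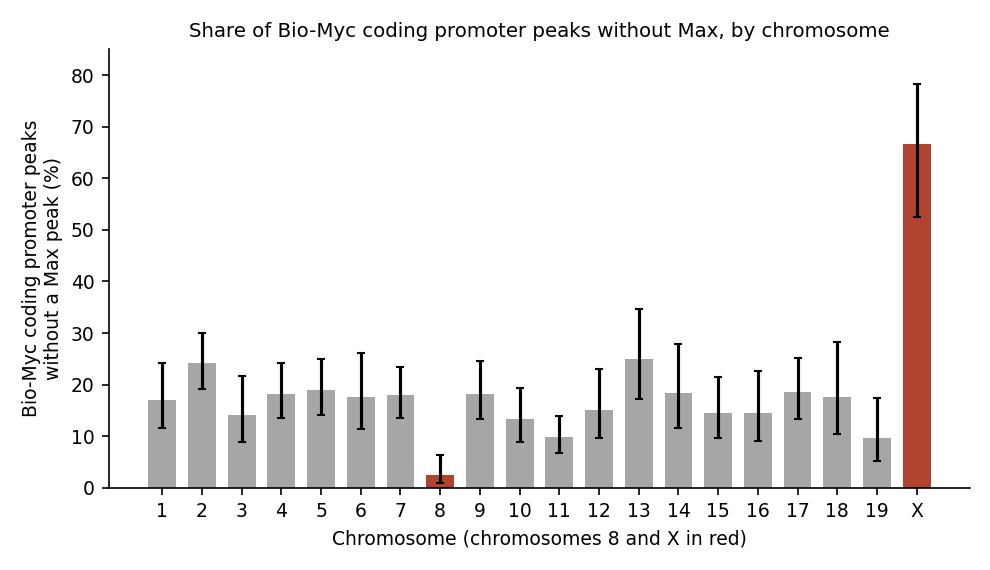
Share of Bio-Myc coding promoter peaks without a Max peak (%, vertical axis) on each chromosome (horizontal axis); bars are shares, error bars 95% Wilson intervals, and chromosomes 8 and X are in red. Chromosome X stands at 66.7% and chromosome 8 at 2.53%, and the others lie between 9.68% and 25%.

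The 32 peaks of chromosome X had a median score of 118 and ran from 83.0 to 242, and all were at least 29.8 kb from a Max peak. The share was also above that of autosomes among peaks of like score, except the strongest. In the 4 lower quintiles of the Bio-Myc score, 9 of 11, 7 of 11, 10 of 12 and 6 of 7 peaks of chromosome X had no Max peak, and in the highest quintile 0 of 7 (upper Wilson limit 35.4%). Autosomes had 29.9%, 22.7%, 17.3%, 8.20% and 2.44% in the same quintiles. The E-Box was in the central 500 bp of 11 of the 32 (34.4%, 20.4 to 51.7%) and of 98 of the 458 autosomal ones (21.4%, 17.9 to 25.4%), with overlapping intervals.

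By score, Snx12, a sorting nexin, led with 242, followed by the ribosomal protein gene Rpl36a with 241 and Tbl1x, a subunit of the NCoR corepressor complex, with 235. Hprt, the purine salvage enzyme often used as a reference gene, scored 175, with Max 75.4 kb away. Kdm6a, an H3K27 demethylase, had 111 and Max 1897 kb away, and Kdm5c, an H3K4 demethylase, 108 and Max 215.84 kb away. The chromatin remodeller Atrx had 85.4 and Max 1728 kb away. Whether chromatin genes were frequent among the peaks of this chromosome was not tested. Zfx, a zinc finger factor of stem cells, and Pgk1, a glycolytic enzyme, both had a score of 112. Ogt, which attaches O-GlcNAc to proteins, had 96.0, and Nono, a paraspeckle protein, 83.0.

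Genes with a Bio-Myc-only peak were next counted in 40 lists of gene families, taken from symbol patterns. The background is the 2.36% of all protein-coding genes that had such a peak, and it is beside this share, and the number with any Bio-Myc peak, that each count should be read. Of the 3275 genes with any Bio-Myc peak, 527 had a Bio-Myc-only one. The lists were not tested. In ribosomes and translation, 79 of 83 cytosolic ribosomal protein genes had a Bio-Myc peak, and for 6 of them, including Rpl36, Rpl36a, Rps29 and Rps4x, a Bio-Myc-only one. The strongest on an autosome was that of Rps29, at 225, and Max was 8.51 kb away from it. The peak of Rpl36 had a score of 83.5 and lay 352 bp from a Max peak. Of the 37 aminoacyl-tRNA synthetases, 24 had Bio-Myc and 3 Bio-Myc only, including Cars and Rars with scores of 190 (190.04) and 153.

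Ribosome biogenesis factors had 3 of 66 (Gnl3l, Rrp7a and Utp14a), mitochondrial ribosomal proteins 4 of 76, and translation factors 2 of 67, of which Eif2ak4 is a kinase of initiation factor 2 and Eif3c a subunit of initiation factor 3. Splicing factors had 5 of 59, with Sf3b1, the core of the branch-site complex, at a score of 112 beside Snrpd1, Prpf4, Srsf4 and Srsf10. RNA modification had 5 of 68, among them Mettl3 and the pseudouridine synthase Pus7. Any Bio-Myc peak was at 49 ribosome biogenesis, 33 mitochondrial ribosomal, 39 translation, 32 splicing and 30 RNA modification genes. In all of these lists, fewer genes had a Bio-Myc-only peak than a shared one. The same was true of all genes with any Bio-Myc peak (Bio-Myc only at 527 of 3275).

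Among mitochondrial genes, 15 of 29 import genes had any Bio-Myc peak. Of the 29, 4 (13.8%, 5.50 to 30.6%) had a Bio-Myc-only peak. They were the Tom complex genes Tomm40, Tomm6 and Tomm7, and Tomm34, which encodes a cytosolic partner. Tomm40, the import channel, had a score of 194 and Max at 17.7 kb, while Tomm34 had 118 and Max at 368 bp. Of the 92 genes of the respiratory chain and ATP synthase list, 34 had any Bio-Myc peak. A Bio-Myc-only peak was at 8 of them, including Ndufs3, Ndufs4, Cox7b and Atp5d, and the assembly factor Ndufaf1. In the list named for central metabolism, whose members need not be such enzymes, 35 of 65 genes had any Bio-Myc peak and 7 a Bio-Myc-only one. Among the 7 were Mdh2, the mitochondrial malate dehydrogenase, at a score of 225, and Hk1, a hexokinase, at 88.1. Gart, a purine synthesis enzyme, had 151 with Max at 291 bp.

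Among cell cycle genes, any Bio-Myc peak was at 11 of 32 kinetochore and centromere genes and at 9 of 25 cyclins. Bio-Myc-only peaks were at 4 of the 32 (12.5%, 4.97 to 28.1%) and 3 of the 25 (12%, 4.17 to 29.96%). The kinetochore genes were Cenph, Cenpl, Spc25 and the checkpoint gene Mad2l1, with scores of 130 (129.75), 147, 90.8 and 103. Their nearest Max peaks were at least 10.2 kb away. The cyclins were Ccnc, Ccnt2 and Ccne1, the cyclin of S phase entry, which had a score of 119 and a Max peak 397 bp away. DNA repair had 5 of 81, including Brip1 and Rad21, and 31 of the 81 had Bio-Myc. DNA replication had 0 of 46, 17 of which had Bio-Myc. The 2 genes found by the cyclin-dependent kinase pattern, Cdk2ap1 and Cdk5rap2, are not kinases.

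Proteasome subunits had 4 of 41 (Psmb1, Psmb4, Psmc1 and Psmd8), with scores of 83.4, 182, 92.5 and 134, and Max at 10.9 kb or more. Any Bio-Myc peak was at 12 of these 41. Chaperones had 5 of 96, including Hsp90b1 of the endoplasmic reticulum, with a score of 185, and 35 of the 96 had any Bio-Myc. Of the 72 genes in the list of histone methylation genes, 30 had any Bio-Myc. Bio-Myc-only peaks were at 6, which were Ash2l, Kdm5c, Kdm6a, Prmt5, Setd3 and Setd4. Of these, Ash2l is a subunit of COMPASS complexes without catalytic activity, and Setd3 methylates actin. Prmt5, an arginine methyltransferase, had the highest score of these, 205, with Max 35.9 kb away. The list named for acetyltransferases and deacetylases, whose members need not be such enzymes, had 3 of 40 (Ing3, Myst1 and Sirt2). Of the 40, 8 had any Bio-Myc. Zinc finger genes had 19 of 436, a share of 4.36% (2.81 to 6.71%), and 70 of them had any Bio-Myc.

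At the Myc network itself, Mycn, the paralogue of Myc that is also expressed in ESCs, had a Bio-Myc-only peak at chr12:12949652-12950538, 932 bp from the TSS. Its score of 84.5 was near the limit, and a Max peak lay 5314 bp away. Of the pluripotency list, Rif1, a telomere and replication timing factor, had one of score 122, with a CACGTG in its central part and no Max within 136 kb. Signalling kinases had 6 of 132 (24 with any Bio-Myc), among them Mtor with a score of 109 and Gsk3b with 115. Solute carriers had 6 of 370 (57 with any Bio-Myc), vesicle traffic 6 of 233 (39), and ubiquitin conjugation and ligases 12 of 355 (72). No gene of the Polycomb, Hox, RNA polymerase, autophagy and lysosome lists had one, out of 35, 40, 21, 30 and 52 genes, of which 11, 0, 8, 5 and 9 had any Bio-Myc. Olfr94 was the only one of 1441 olfactory and vomeronasal receptor genes with a Bio-Myc peak at a promoter, and it had no Max peak.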

How the data were processed

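Sequencing was on an Illumina HiScanSQ (CASAVA 1.8). The authors used Bowtie 0.12.7 on mm9, keeping reads that hit 1 place with at most 2 mismatches, and counted reads at the same position once. MACS 1.4.1 then called peaks against the mock or IgG ChIP. The deposited score is MACS's own, −10 log10 of the p-value, in the list of each ChIP, with a lowest value of 80 (1e-08). A fixed limit makes the number of peaks depend on depth, and unique mapping leaves out repeats.

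Peaks of both lists that had 1 bp or more in common were called overlapping. Genes, TSSs and exons were those of GENCODE M1, on the assembly of mm9, from which sequences were read. Promoters reached 1 kb to either side of any TSS of a protein-coding gene. Motifs were counted in the central 500 bp on both strands and compared by two-sided Fisher's exact tests, adjusted over 27 motifs, or by Mantel-Haenszel odds ratios. Promoters were called high CpG from 500-bp windows moved by 50 bp between 500 bp upstream and 2000 bp downstream of the outermost TSS. The regions, motifs and the 40 gene lists were chosen with earlier results of these data known. Named genes are the 10 highest scores, the 5 peaks richest in E-Boxes, the 5 farthest from and nearest to Max, the peaks next to each limit, and members of the lists. Other genes of chromosomes 8 and X were named after their values were seen, as was the choice of printed sequences. Alternatives changed the overlap, score limits, promoter window, search window and chromosomes. The counts were tested on simulated data, where 7 of 7 steps returned the known answer. Python 3.11.15, numpy 2.4.6, scipy 1.17.1, pysam 0.24.0, matplotlib 3.10.9 and samtools 1.23.1 were used. Coordinates are 1-based. Reads and control libraries were not used here, and some genes that the naming rule picks are not reported here.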

Additional observations from a re-analysis of the deposited data

How the results depend on the processing

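Over the alternatives, the odds ratio of the E-Box stayed between 0.346 and 0.527 in 16 of 16. Its highest p was 0.00642 (Fisher's exact test, peaks beside the TSS). The lowest odds ratio was that over whole peaks, which differ in width between the sets. The alternatives stratified by score and by CpG class gave Mantel-Haenszel odds ratios. For high CpG, the odds ratio lay between 0.299 and 0.504 in 12 of 12 (highest p = 0.0167, Fisher's exact test). The numbers of peaks and genes followed the score limits. With Bio-Myc at 1e-11, 235 Bio-Myc-only peaks were left (11.9% of coding promoter peaks, 258 genes), with Bio-Myc at 1e-15, 88 (6.78%, 98 genes), and with Max at 1e-15 there were 887 (30.6%, 993 genes). The share was 15.6% and 15.2% when Max within 500 bp or 1 kb counted as present, and 14.5% when the peak had to cover the TSS. The number of motifs past the threshold was 2 with Bio-Myc at 1e-11 and 2 at 1e-15, where fewer peaks were compared, 5 with a TSS within 500 bp, 4 with the TSS covered, 3 in the central 200 bp and 15 over whole peaks, which differ in width. Leaving out chromosome X, stratifying by CpG class and taking peaks beside the TSS alone were chosen after seeing the data. Without chromosome X, 458 peaks (16.1%) were left and the E-Box odds ratio was 0.447.

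Depth limits these lists in a way that cannot be measured from them, since a Max peak just under the limit and no Max at all look alike. No paired analysis was possible because each list comes from 1 library.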
